A study of Mus musculus with 8 samples.

Results

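G protein coupled receptors of endothelial cells were examined in single endocardium cells of mouse embryos, in a set of 8 genes that comprised *S1pr1*, *Aplnr*, *Cxcr4*, *Ednrb*, *F2r*, *Eltd1*, *Calcrl* and *Ramp2*. The members were found as the noncontrol probes of the array that carry these gene names, which gave 9 of the 55295 probes analysed and 8 of 35560 genes. The files list 7 members under the given name, and *Eltd1* under its present symbol *Adgrl4*. *Ednrb* had 2 probes and every other member 1.

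RNA of 8 single cells, isolated at E8.5 from embryos with 9 somites, was amplified and hybridized to 8 1-colour Agilent arrays, with 1 cell per array. All cells carried *Sox17* flox/flox alleles. The 4 WT cells were *Mesp1*+/+ and thus without Cre, and the 4 KO cells were *Mesp1*Cre/+, so that *Sox17* was deleted where the *Mesp1* promoter drives Cre, in early mesoderm and the cardiac lineages that come from it. The labels give the heart tube as the source and the methods the ventricle, and the study assigned the cell type by PCR of marker genes before the arrays were run. The comparison asks how loss of *Sox17* in mesoderm changes expression in the early endocardium, the inner lining of the heart tube. No source names the embryo a cell came from, and each genotype therefore counted as 1 sample. No test was made, and differences are set beside the SD between cells.

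Receptors of this class span the membrane and pass the binding of a ligand to heterotrimeric G proteins, after which receptor kinases and arrestins shut the signal off. In endothelium they read lipids, peptides, chemokines and proteases that arrive with the blood or from neighbouring tissue, and they control migration, junctions, lumen and vessel tone. S1PR1 binds sphingosine 1-phosphate, APLNR binds apelin and APELA, CXCR4 binds CXCL12, EDNRB binds endothelins, F2R (PAR1) is cleaved by thrombin, and ELTD1 is an adhesion receptor of blood vessels. CALCRL becomes a receptor for adrenomedullin only together with RAMP2, which has a single membrane span and is no G protein coupled receptor itself.

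The probes set what could be seen of each gene, since the cDNA was primed from the poly(A) tail. The sequences shown are those of both *Ednrb* probes, which gave opposite detection calls, of the *S1pr1* probe, and of the 2 member probes that hold the poly(A) signal AATAAA, which is in capitals. All are from the deposited files (mm9), 5′ to 3′. The second *Ednrb* probe, listed under the accession of another transcript variant, is given whole, with its 60 bases, and a stretch of 30 bases is given of the others.
*S1pr1* (chr3:115414020-115414049, minus strand): tgttccttattcccattacaaccacaatgg
*Ednrb*, probe 1 (chr14:104214484-104214513, minus strand): agttattggctccccagtagtttcacagcg
*Ednrb*, probe 2 (chr14:104220870-104220929, minus strand): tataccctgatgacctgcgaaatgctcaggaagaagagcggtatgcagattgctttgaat
*Cxcr4* (chr1:130485083-130485112, minus strand): tgtggtaaattgAATAAAgctagccgtgat
*Ramp2* (chr11:101109530-101109559, plus strand): tgtagtctttaaAATAAAgttatgtttttg

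The number of probes well above background, a call of the scanner software, ranged from 11370 to 18175 in WT cells and from 12781 to 16853 in KO cells. Arrays were scaled to the median signal of the 7570 probes with this call on all arrays, signals were given a floor of 50, and their log2 was used, so that the lowest level is 5.64. A level below is this log2 value, and levels are compared between cells for 1 probe and never between probes. All arrays were on 1 slide with the genotypes in separate columns, and slide position cannot be told apart from genotype. The scanner software graded the array of WT cell 1 for evaluation. Both probes of *Sox17* were not well above background in any cell of either genotype, so that they did not check the labels. Of 10 endocardial or endothelial markers, 7 to 10 were well above background in WT cells and 6 to 9 in KO cells. Of 9 cardiomyocyte markers, 4 to 8 had this call in WT cells and 3 to 7 in KO cells, and their summed scaled signal ranged from 364 to 50615 and from 817 to 48763. Of these, *Myh6* was at the floor in all cells. In each of these lists 1 marker was at least 5-fold higher in KO cells, *Emcn* by 4.07 (pooled SD 2.58) and *Actc1* by 2.67 (pooled SD 2.79) on the log2 scale, the latter by 1.46 without WT cell 1, and none was at least 5-fold lower. The part of these transcripts in the differences below was not tested. Of 5 blood markers 2 were well above background, *Hbb-bh1* in 2 WT cells and *Hbb-y* in 1 KO cell, but all 5 were at the floor in every cell. None of the 5 endoderm and 4 epicardial markers was well above background in any cell. Of 3 smooth muscle markers, *Acta2* and *Tagln* had this call throughout, in all 8 cells, and *Myh11* in none. *Acta2* peaked at 13.80 (WT cell 2) and 12.86 (KO cell 4), and its next level was 6.15 (WT cell 1). *Tagln* reached 8.22 (KO cell 4). Their differences were -0.36 (pooled SD 3.81) and 0.32 (pooled SD 1.08). The part of smooth muscle transcripts in the differences below was not tested either.

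All 8 members were well above background in at least 1 cell, and 3 of them, *Ramp2*, *F2r* and *Ednrb*, in all 8 cells. WT cells 1 to 4 had 4, 6, 5 and 8 members with this call, and KO cells 1 to 4 had 5, 5, 6 and 5. WT cell 4, in which all members were detected, was also the cell with the most probes above background. Of the 44 detected member values, 8 lay under the floor of 50, so that a gene can be both detected and at the floor. The scanner's own error on a detected spot was at most 20.2% of its signal. The median SD between cells was 1.42 for the members and 0.72 for all genes detected in any cell. These medians are not over like genes. Every member rose above the floor in at least 1 cell, whereas all genes include some that stayed at the floor and had no spread, such as *S1pr3*.

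Between the genotypes, *S1pr1* was higher and *Ednrb* was lower in KO cells by at least 5-fold, the factor that the study used. That is 1 of 8 members in each direction, where, of the 20274 genes well above background somewhere, 3.22% were at least 5-fold higher and 3.24% at least 5-fold lower. The other 6 members differed by less than 5-fold. The cells of the genotypes separated for 0 of 8 members. All KO cells were above all WT cells for 1.13% of the 20274 genes and below them for 0.247%, so that the members were near these shares. The median difference (KO minus WT) of the members was 0.80 on the log2 scale, and that of all genes was 0.00. The difference was positive for 6 members and negative for 2, and over the 20274 genes it was positive for 8103, negative for 6492 and 0 for 5679.

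**Figure D1:**
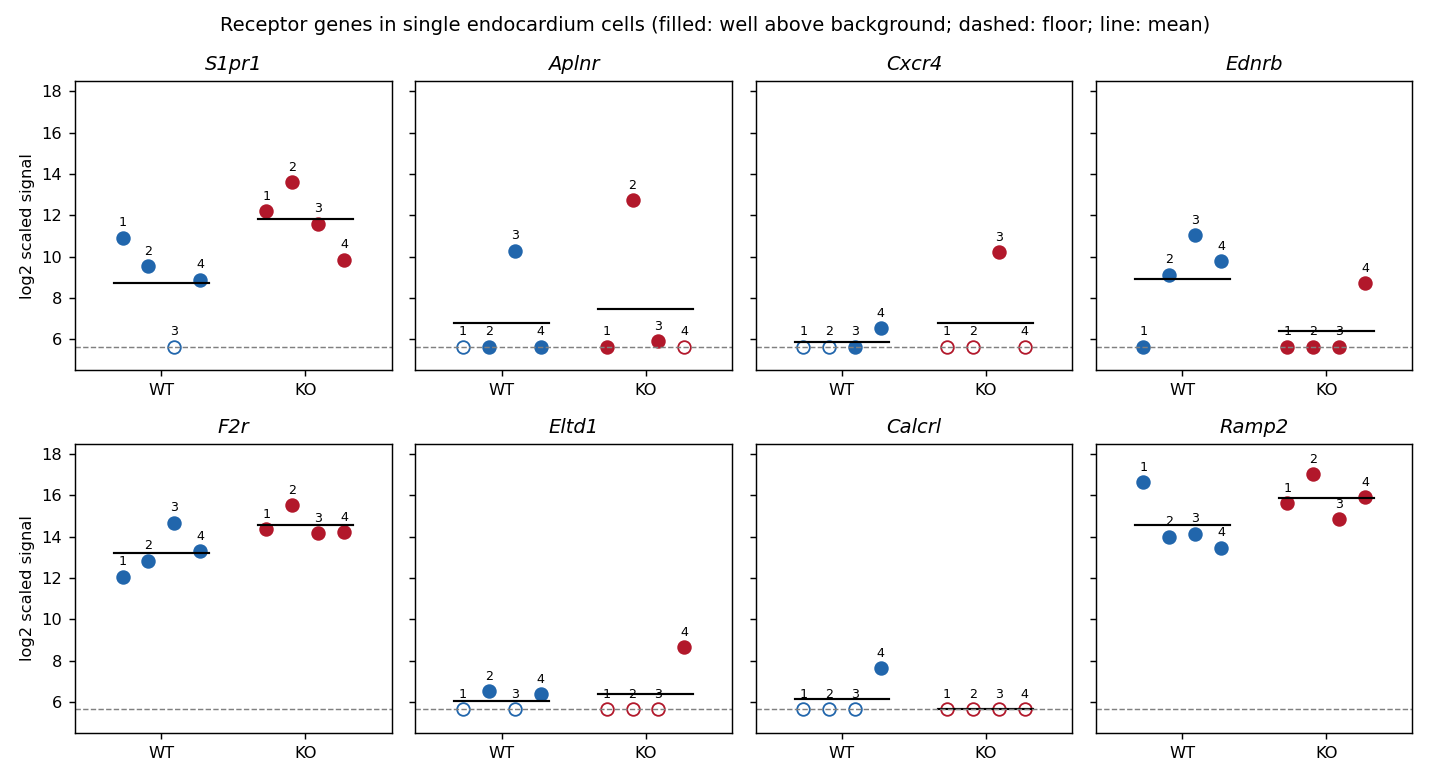
Level of the 8 members (log2 scaled signal, y axis) in the 4 WT (blue) and 4 KO (red) cells, numbered by cell, with filled points for cells in which the probe was well above background, a line at each genotype's mean and a dashed line at the floor of 5.64. *Ramp2* and *F2r* stand above the floor in all cells, while *Aplnr*, *Cxcr4*, *Eltd1* and *Calcrl* rest on 1 or a few cells.

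*S1pr1*, the receptor through which sphingosine 1-phosphate stabilizes endothelial junctions and restrains sprouting, had the largest difference of the members. The WT cells, in order from cell 1 to cell 4, gave scaled signals of 1923, 745.8, 6.55 and 471.2. The KO cells gave 4736, 12396, 3083 and 925.8 in the same order. Of the 8 cells, only WT cell 3 was not well above background. KO cells 1, 2 and 3 were above every WT cell, and KO cell 4 was below WT cell 1, so that the genotypes overlapped. The mean level was 8.74 ± 2.23 (SD, n = 4) in WT and 11.81 ± 1.55 (SD, n = 4) in KO cells, a difference of 3.07, or 8.39-fold. The SD pooled over both genotypes was 1.92. Without WT cell 3 the difference was 2.04, which is below 5-fold.

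The remaining receptors of this ligand gave little signal. *S1pr2* was well above background in 3 cells and reached 8.68 in KO cell 1 and 7.73 in KO cell 4, but stayed at the floor elsewhere. *S1pr3* was well above background in 6 cells yet at the floor in all of them, and *S1pr4* and *S1pr5* were not detected in any cell. Among genes that make, export and break down the lipid, the kinase *Sphk2* was at 11.64 in WT cell 2, 10.86 in WT cell 4 and 6.86 in KO cell 4, and at the floor elsewhere. Its difference was -2.50 (pooled SD 2.34), and -1.43 without WT cell 2. The exporter *Spns2*, which supplies the lipid from endothelial cells, was above the floor in 2 WT and 2 KO cells, with a difference of 0.38 that was -0.62 without KO cell 3 and 1.72 without WT cell 3. Of 13 genes of this axis, 9 were well above background in at least 1 cell, 0 were at least 5-fold higher and 1 was lower, and the median difference was 0.00.

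*Ednrb*, which binds all endothelins, was the member with the largest negative difference. With the first probe, the scaled signals of the WT cells were 30.3, 557.8, 2107 and 884.5, listed from cell 1 to cell 4. Those of the KO cells were 28.5, 32.9, 17.1 and 419.0. WT cells 2, 3 and 4 were above every KO cell, but WT cell 1 was at the floor with KO cells 1, 2 and 3, so that the genotypes overlapped. The mean level was 8.90 ± 2.31 (SD, n = 4) in WT and 6.41 ± 1.53 (SD, n = 4) in KO cells. The difference of -2.49, or 5.61-fold, had a pooled SD of 1.96. It lay close to the 5-fold limit of 2.32, and past it in only 7 of 16 alternative settings, with a range from -3.57 without WT cell 1 to -1.24 with the mean of both probes. The second probe was at the floor in every cell, so that this mean shrinks the difference whatever the first probe shows.

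The second *Ednrb* probe, which lies 6386 bases upstream in the genome, was not well above background in any cell, with scaled signals from 1.51 to 13.1. The 2 probes therefore disagreed in the WT cells in which the first probe was bright. The partners of the receptor were mostly absent from the calls. *Edn1*, *Edn2* and the second receptor *Ednra* were not detected in any cell, *Edn3* was detected in KO cells only, in 1 cell and at the floor, and *Ece1*, which processes endothelin precursors, was detected in 2 cells at levels up to 6.02. Of the 5 genes 2 were thus detected in any cell and 1 was above the floor, and none was at least 5-fold apart.

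*Ramp2* and *Calcrl*, which together form the adrenomedullin receptor, had unlike profiles. For *Ramp2* the WT cells gave scaled signals of 102758, 16424, 18231 and 11233, again from cell 1 to cell 4, and the KO cells 50876, 133551, 29505 and 61074. WT cell 1 was second to KO cell 2, and the other 3 WT cells were below all KO cells. The difference of the mean levels, 14.57 ± 1.42 in WT and 15.85 ± 0.90 in KO cells (SD, n = 4 each), was 1.29, or 2.44-fold, with a pooled SD of 1.19. It was 0.62 with quantile normalization, 0.90 without KO cell 2 and 1.98 without WT cell 1.

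*Calcrl* was well above background in WT cell 4 alone, where its scaled signal was 199.1, and not above 4.62 in any other cell. No KO cell was above background. The mean was 1.41-fold lower in KO cells, which is not a minimum, since the other WT cells were also at the floor. The log2 difference was 0.00 without WT cell 4. The receptor and its accessory protein were thus detected together in 1 of 8 cells. *Ramp1*, which turns CALCRL into a receptor for the calcitonin gene-related peptide, was well above background in all 8 cells at levels up to 7.54, and *Ramp3* and *Calcr* were not detected. The ligand *Adm* was well above background in 7 cells but above the floor in WT cell 1 only, at 6.11.

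*Gpr182*, an endothelial receptor once named as an adrenomedullin receptor, had levels of 15.37, 13.43, 13.35 and 14.46 in the 4 WT cells, by cell number, and of 13.52, 5.64, 12.75 and 5.64 in the KO cells. KO cells 2 and 4 were at the floor, and KO cell 1 lay among the WT cells. The difference was -4.76 (pooled SD 3.14), and -3.51 without KO cell 2. The gene is on the list that the study selected on these same cells, so that it is no independent evidence of a direction. In this axis 7 of 10 genes were well above background in at least 1 cell, 0 were at least 5-fold higher and 1 lower, with a median difference of -0.03.

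*F2r*, which signals in endothelium after cleavage by thrombin, gave scaled signals of 4289, 7356, 26235 and 10074 in the WT cells, by cell number, and of 20812, 46819, 18570 and 19020 in the KO cells. WT cells 1, 2 and 4 were below all KO cells, and WT cell 3 was below KO cell 2 only. The mean levels were 13.22 ± 1.10 in WT and 14.56 ± 0.64 in KO cells (SD, n = 4 each), a difference of 1.34, or 2.54-fold, with a pooled SD of 0.90. It was positive in all 16 alternative settings, from 0.63 with quantile normalization to 1.83 without WT cell 3. The related receptors *F2rl1*, *F2rl2* and *F2rl3* and thrombin itself (*F2*) were not detected in any cell. *Thbd*, the thrombomodulin that binds thrombin on endothelium, was detected in 4 cells, at 9.85 and 10.82 in WT cells 3 and 4 and 8.37 in KO cell 4. Of the 10 genes of this axis, 3 were well above background in at least 1 cell and 2 above the floor, and neither of these was at least 5-fold apart.

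*Aplnr*, a receptor of heart and vessel progenitors, was bright in 1 cell of each genotype. By cell number, the WT cells gave scaled signals of 4.91, 10.3, 1249 and 7.60, and the KO cells 35.1, 6729, 60.3 and 5.41. WT cell 3 and KO cell 2 stood apart, and KO cell 3 was just over the floor. The difference of 0.68 was far under the pooled SD of 2.97, and it was -1.07 without KO cell 2 and 1.84 without WT cell 3. Its ligand *Apln*, which tip cells of sprouting vessels make, was well above background in KO cells only, in 2 of them and at the floor, and *Apela* was not detected in any cell.

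*Cxcr4*, the chemokine receptor that guides vessel growth towards CXCL12, gave a scaled signal of 1193 in KO cell 3 and 92.6 in WT cell 4. WT cell 3 was also called well above background, at 12.2, and the other 5 cells were not, with signals from 1.32 to 9.72. The difference of 0.92 (pooled SD 1.65) rested on 1 cell, and it was -0.22 without KO cell 3. *Cxcl12* and *Ackr3*, the second receptor of this ligand, were not detected in any cell. *Mif*, a cytokine that can also bind CXCR4, was well above background in all 8 cells with a difference of 0.69 (pooled SD 0.41).

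*Eltd1* was well above background in WT cells 2 and 4, with scaled signals of 91.0 and 83.3, and in KO cell 4, with 402.9. In the other 5 cells it was not above 4.27. The difference was 0.35 (pooled SD 1.11) and -0.40 without KO cell 4. Of 12 related adhesion receptors, 9 were well above background in at least 1 cell. *Adgrl1*, of the same subfamily, was above the floor in 2 cells of each genotype, with a difference of 0.86 (pooled SD 2.65) that was -0.27 without KO cell 4. *Adgrl2* was not detected. *Adgra3* was the only one of them at least 5-fold apart. It was at 11.31, 11.08 and 10.67 in WT cells 2, 3 and 4, at 9.98 in KO cell 4 and at the floor elsewhere. The difference was -2.95 (pooled SD 2.45). Over its 2 probes the mean difference was -1.47, because the second probe showed no difference. That does not show equal levels, since a probe at the floor in every cell gives the same result.

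**Figure D2:**
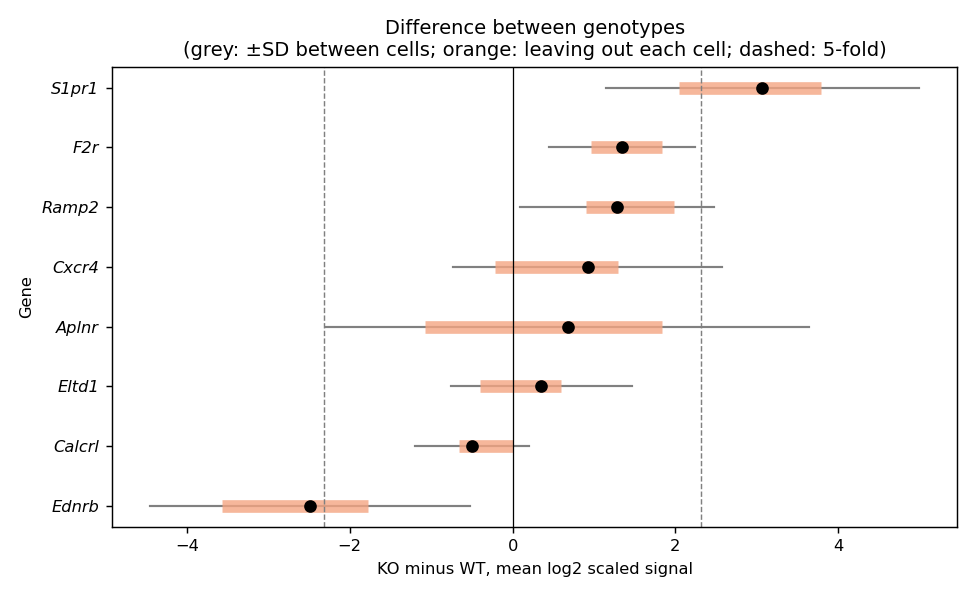
Difference of mean log2 scaled signal (KO minus WT, x axis) for each member, as black points with the pooled SD (grey line) and the range when each cell was left out in turn (orange bar). The dashed lines mark 5-fold, and only *S1pr1* (3.07) and *Ednrb* (-2.49) lie past them, with bars that reach back inside.

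**Figure D3:**
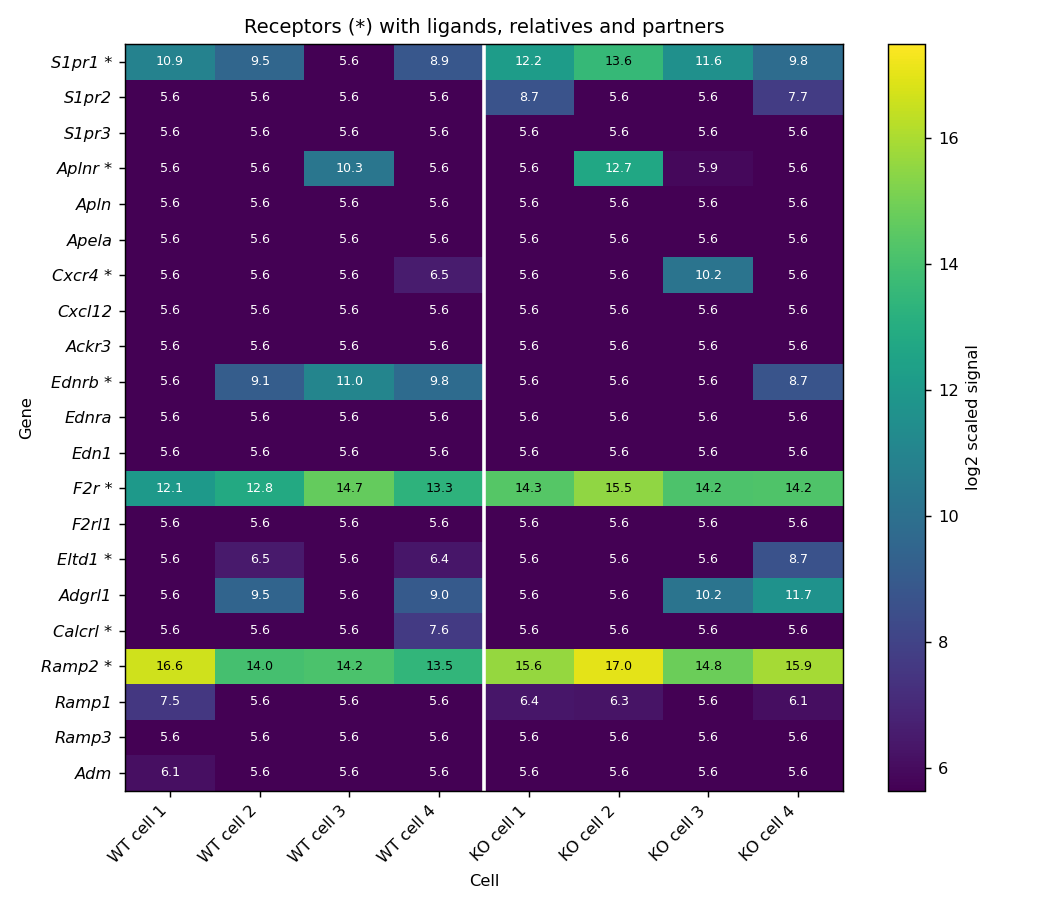
Level (log2 scaled signal, colour and printed value) of the members (marked *) and of their ligands, related receptors and partners (y axis) in each cell (x axis). A row is to be read across cells, not against other rows, and most ligands are at the floor of 5.64 (printed as 5.6) in every cell.

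The machinery downstream of the receptors was examined in lists of G protein subunits, of receptor kinases, arrestins and regulators of G protein signaling, and of effectors. With the partners above and other endothelial receptors, the lists hold 173 genes, of which 118 were well above background in at least 1 cell. Of these 118 genes, 3 were at least 5-fold higher and 7 at least 5-fold lower in KO cells, against the shares of 3.22% and 3.24% for all genes.

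*Gna11*, an alpha subunit of the Gq class that couples receptors such as F2R to phospholipase C, had levels of 12.47, 11.58, 12.58 and 11 in the WT cells, by cell number. The KO cells had levels of 5.64, 5.64, 6 and 10.76. All KO cells were below all WT cells, by a narrow gap for KO cell 4, and the difference was -4.90 (pooled SD 1.85). *Gnai2*, an inhibitory alpha subunit to which S1PR1 couples, was above the floor in every cell but WT cell 1, and its difference of 2.45 (pooled SD 2.38) was 0.90 without that cell. Of 30 subunit genes 26 were well above background in at least 1 cell, and their median difference was 0.00.

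*Arrb1*, an arrestin that uncouples activated receptors, had levels of 5.68, 11.06, 6.20 and 5.95 in the WT cells, by cell number. Those of the KO cells were 11.30, 12.29, 13.43 and 9.84. WT cell 2 lay among the KO cells and the other WT cells were near the floor, with a difference of 4.49 (pooled SD 2.11). The related *Arrb2* differed by -1.17 (pooled SD 2.88), and by 0.14 without WT cell 1. The receptor kinase *Grk2* was above the floor in WT cells 2, 3 and 4 and not well above background in any KO cell. It was 10.8-fold lower in KO cells, which is not a minimum, since WT cell 1 was also at the floor. The log2 difference was -3.43, and -2.03 without WT cell 3. *Grk6* differed by -2.55 (pooled SD 1.67) and by -1.75 without WT cell 2. As the mean over its 2 probes it differed by -1.28, because the second probe showed no difference. A probe at the floor in every cell gives the same result, so that equal levels are not shown. *Gna11*, *Arrb1* and *Grk6*, like *Gpr182*, are on lists that the study chose on these cells. Of 29 effector genes, 22 were well above background in at least 1 cell, and none of these was at least 5-fold apart.

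Of 31 other receptors described in endothelium, 20 were well above background in at least 1 cell, 1 was at least 5-fold higher and 1 lower. *Tbxa2r*, the thromboxane receptor, was at 13.38 and 11.24 in KO cells 2 and 3, and all 6 other cells were at the floor. Its difference was 3.33 (pooled SD 2.79), and 1.87 without KO cell 2. *Lpar6*, a receptor for lysophosphatidic acid, was at 13.36 and 12.78 in WT cells 3 and 4 and at the floor elsewhere. No KO cell was above background. The log2 difference of -3.71, or 13.1-fold, was -2.38 without WT cell 3. It is not a minimum, since WT cells 1 and 2 were also at the floor.

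**Figure D4:**
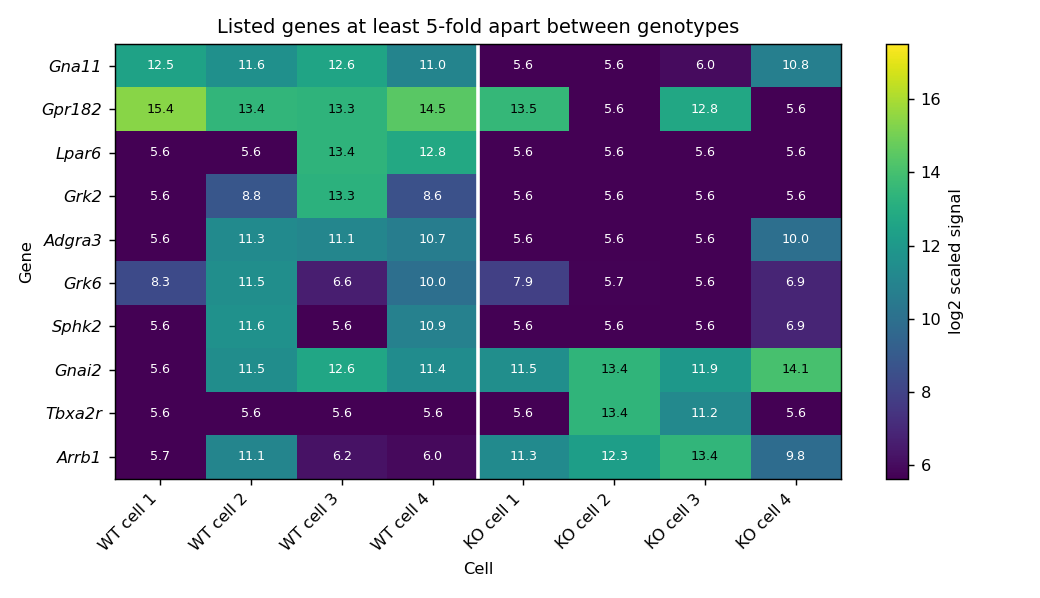
Level (log2 scaled signal, colour and printed value) of the 10 listed partner and pathway genes that were at least 5-fold apart between genotypes (y axis, ordered by difference) in each cell (x axis). The 4 KO cells are all below the WT cells for *Gna11*, and for the other genes at least 1 cell reaches into the range of the other genotype.

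Among the members themselves, Pearson's r over the 8 cells ranged from -0.91 for *S1pr1* and *Ednrb* to 0.71 for *Aplnr* and *F2r* in 28 pairs. KO cell 2 was the highest cell for *S1pr1*, *Ramp2*, *F2r* and *Aplnr*, while WT cell 3 was lowest for *S1pr1* and highest for *Ednrb*. These values share the scaling of each array, and *Ednrb* was at the floor in 4 cells, so that they describe these cells only.

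For the 5 members well above background in at least 4 cells, the genes with the most similar profile over the 8 cells were sought among 10000 others. The highest r with *S1pr1* were 0.985 for *Gm12657* and 0.983 for *Gm10257*, those with *Aplnr* 0.998 for *Vmn1r195* and 0.991 for *Ghrl*, and those with *Ednrb* 0.994 for *Safb* and 0.991 for *Unc45a* and *Vmp1*. The profiles nearest to *F2r* (r up to 0.983) and *Ramp2* (r up to 0.989), and the third for *S1pr1* (0.974) and *Aplnr* (0.991), belonged to probes without a gene symbol. Over all genes compared, the highest r of a gene had a median of 0.99, so that values of this size were common with 8 cells.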

How the data were processed

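The authors deposited the scanner output of 8 arrays (design 028005), made with Agilent Feature Extraction 12.0.2.2. The intensity of each spot was background-subtracted and detrended within the array but not normalized between arrays, and other deposited flags mark outlier spots and signal over background. Control and outlier spots were dropped, which left 55295 of 55681 probes that could be read on every array. No probe was saturated. Arrays were scaled to the 50th percentile of 7570 probes well above background on all arrays, set to a floor of 50 and log2 transformed. Names came from a RefSeq table (GRCm38.p6) for 28131 probes. The probe with the highest mean stands for a gene. Probe coordinates are those of the files (mm9).

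Differences are KO minus WT of mean log2 values. Named genes were the members, their ligands, partners and closest relatives, listed genes at least 5-fold apart or without overlap, *Arrb2*, and the 3 most similar profiles. The members and lists were chosen with earlier results of these data known. The alternatives were other percentiles, floors, normalizations, probe and detection rules, and leaving out each cell. The setting with no floor was chosen after seeing the data. The steps were tested on simulated data, in which levels were kept above the floor and cells varied less than the median member did. That test therefore did not cover values at the floor. The number of arrays limits the precision. Python 3.11.15, pandas 2.3.3, and R 4.3.3 with limma 3.58.1 (normexp) were used.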

Additional observations from a re-analysis of the deposited data

Results flagged for a closer look

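The 9 probes in 2 genotypes gave 18 sets of 4 cells, of which 3 had all cells at the floor and no ratio. In 8 of the other 15 sets, 1 cell stood apart from the other 3, with a gap to its neighbour that, as a ratio to the whole range, was past Dixon's critical value. Chance marks about 1 in 20 such sets, and in 6 of the 8 the other 3 cells were at the floor, which sets the ratio to 1. These were *Aplnr* in WT cell 3 (level 10.29, ratio 1.0), *Cxcr4* in WT cell 4 (6.53, ratio 1.0) and KO cell 3 (10.22, ratio 1.0), *Ednrb* in KO cell 4 (8.71, ratio 1.0), *Eltd1* in KO cell 4 (8.65, ratio 1.0) and *Calcrl* in WT cell 4 (7.64, ratio 1.0). *Aplnr* in KO cell 2 was at 12.72, with the next cell at 5.91 (ratio 0.962), and *F2r* in KO cell 2 was at 15.51, with the next at 14.35 (ratio 0.877).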

How the results depend on the processing

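*S1pr1* was higher in KO cells in all 16 alternatives, and past 5-fold in all but the one without WT cell 3. *Ednrb* was lower in all 16, and past 5-fold in 7. The count of members at least 5-fold apart, 2 as reported, was 1 with quantile normalization (*Ednrb* at -2.32, just under the limit), normexp (-2.22), a floor of 200 (-1.49) and the mean of all probes (-1.24), and ranged from 0 (without WT cell 3) to 2 when cells were left out. It was also 1 without WT cell 4 or KO cell 1, 2 or 3. The mean of all probes takes in the second *Ednrb* probe, which was at the floor in every cell and thus shrinks the difference. *F2r* and *Ramp2* stayed positive in all 16, at their lowest with quantile normalization (0.63 and 0.62). *Aplnr* was -1.07 without KO cell 2, *Cxcr4* -0.22 without KO cell 3, and *Eltd1* negative in 4 alternatives, down to -0.76 with no floor. *Calcrl* was -1.58 with no floor and 0.00 with a floor of 200. The median of the members ranged from 0.57 (without WT cell 1) to 1.29 (without KO cell 1), while the median of all genes was 0.32 with no floor, 0.23 with normexp, 0.17 with a floor of 10 and 0.00 otherwise. The median number of members detected per cell was 5 by either probe rule and 6 with the other detection call. Of the 72 probe values of the members, 28 were not well above background, among them all values of the second *Ednrb* probe. Whether depth was the reason was not tested. No paired analysis was possible because no label pairs a WT cell with a KO cell and the replicate numbers only name cells.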
